A study of Drosophila melanogaster with 12 samples.

Results

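Single-exon circular RNAs are circles made of 1 exon whose end is joined to its own start. They were taken from the deposited lists of circular RNAs of wildtype and Nxt1 mutant larvae of Drosophila melanogaster. A listed circle is named by its transcript, its last exon and its first exon, and those with the same exon in both places were kept. Over both genotypes 227 of 729 circles were of this kind, 246 joined 2 exons and 256 joined 3 or more. The WT list held 194 single-exon circles of 597 and the Nxt1 list 138 of 467.

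Circular RNAs form by back-splicing, in which a splice donor is joined to an acceptor upstream of it. A circle has no free end, so exonucleases that degrade linear RNA spare it and it can outlast the mRNA of its gene. In flies base-paired repeats in the flanking introns and RNA-binding proteins, Muscleblind among them, are known to favour circle formation. The nuclear export of long circles depends on the RNA helicase encoded by Hel25E. Nxt1 pairs with the product of sbr, the receptor that carries mRNA out of the nucleus.

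The study asked how Nxt1 affects circular RNA. RNA came from carcasses, the body wall left after the internal organs are taken out, of stationary larvae of instar 3 that had been staged on food with bromophenol blue. WT larvae are of strain w1118, and the mutants, trans-heterozygotes for Nxt1 whose alleles are not named, are listed under strain yw, so genotype and strain cannot be told apart in any comparison here. Each of the 4 groups has 3 libraries: total RNA with RNase R, an exonuclease of linear RNA, gave the circle values of both genotypes, and RNA kept in water in its place gave the mRNA and pre-mRNA values. The labels write the treatments as R and M, read here as RNase R and mock.

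Depth, as implied by the authors' scaled means, was 69690700, 78830800 and 92273200 reads for the WT libraries treated with RNase R. For those of Nxt1 it was 48182700, 71326500 and 78946600. For each circle the lists give reads for only 2 of the 3 libraries of a genotype, and neither the rule behind this nor the replicate number is given in the sources used here. Levels below are back-splice reads divided by these totals, per 1000000000 library reads and called scaled reads, with 2 values per genotype. In the mock libraries Nxt1 mRNA itself was at 9.64 ± 1.22 FPKM in WT and 6.10 ± 0.43 in Nxt1 (SD, n = 3 each), a log2 fold of -0.58 (limma adjusted p = 0.0164) that missed the threshold without WT replicate 1, Nxt1 replicate 1 or Nxt1 replicate 3 (limma adjusted p from 0.0576 to 0.0645). None of the 35 markers checked was without reads, where 15293 of all 17492 genes had reads. The 35 include markers of salivary gland and midgut, so having reads does not by itself identify the tissue. Summed levels of muscle markers ran from 28974 to 64302 CPM of recovered reads in WT and from 57128 to 73179 in Nxt1, and those of epidermis and cuticle from 32848 to 51069 and from 61493 to 79985. Salivary gland markers, which the dissection should remove, ran from 14.3 to 111 and from 134 to 390, with 4 of 4 higher in Nxt1 by limma. By the same test, which called 12.5% of all genes higher and 9.1% lower, 2 of 8 muscle, 2 of 6 epidermis and cuticle, 3 of 5 fat body and 1 of 3 midgut markers were higher, and 1 of 4 hemocyte and 1 of 4 neuron markers lower. Fat body markers summed to between 3265 and 4110 CPM in WT and 4603 and 6575 in Nxt1, midgut markers to between 2.89 and 60.1 and 16.9 and 149. Hemocyte markers lay between 696 and 920 and between 707 and 911, neuron markers between 51.4 and 52.04 and between 33.6 and 40.8. The part of these differences in the results on circles was not tested, and stw, tn and grh are both markers and circle hosts. In such bulk samples fewer cells of a type and less RNA per cell cannot be told apart.

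Most single-exon circles came from the start of a transcript. Exon 2 formed 134 of the 227 (59.0%), exon 3 formed 46 (20.3%), and the other 47 came from exon 4 or later, up to exon 13. None was formed by exon 1, which lacks the upstream acceptor that back-splicing needs. Among circles of 2 exons 42.3% began at exon 2, and among longer ones 37.5%. Exon numbers count within the named transcript, and 5 host genes (CG31688, CG41099, RanBPM, Rox8 and ps) had the same exon number under different transcripts.

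**Figure D1:**
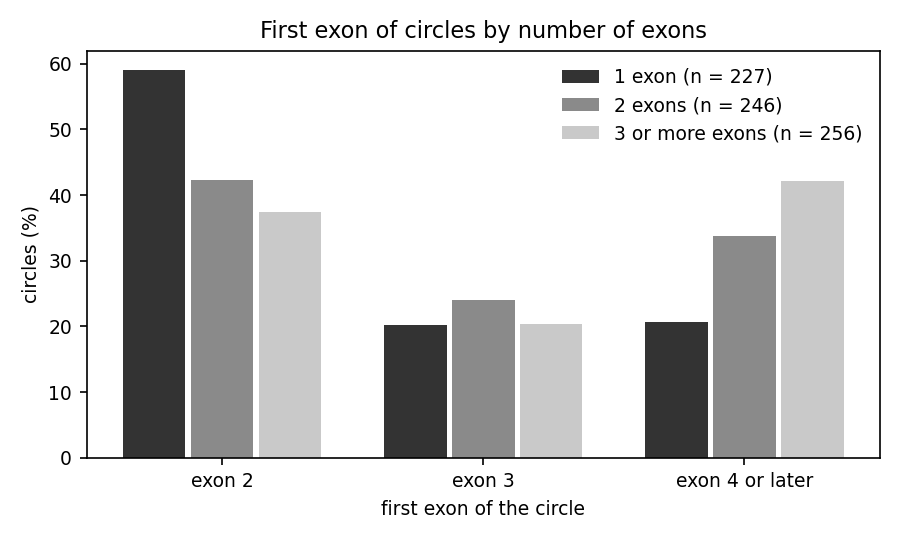
Share of circles (%, vertical axis) that begin at exon 2, exon 3 or a later exon, for circles of 1 exon, 2 exons and 3 or more exons over both genotypes. The bar of single-exon circles at exon 2 stands at 59.0%, above 42.3% for circles of 2 exons and 37.5% for longer ones.

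The 227 circles came from 207 host genes out of 510 that hosted any circle. Of these hosts 189 gave 1 single-exon circle and 18 gave more, with 3 each from CG42674 and ct, the latter a homeobox transcription factor. Circles of several exons were listed for 54 of the 207 hosts (26.1%) as well. Of these 54 hosts, 52 had any circle listed in WT and 51 in Nxt1. The median share of a host's circle level in its single-exon circles was 49.9% in WT and 53.3% in Nxt1. These medians include hosts with only 1 of the kinds listed in that genotype, so they do not describe hosts that listed both.

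Levels were very uneven. In WT the median circle stood at 294 scaled reads, with a range from 11.8 to 80544, and in Nxt1 at 364, with a range from 13.3 to 71503. The 15 most abundant circles held 65.1% of the summed single-exon level in WT and 70.2% in Nxt1. The circle of stw exon 2 alone held 30.3% and 32.9%. The gene stw encodes a laccase that tans the cuticle, and it was the host of the most single-exon reads.

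The stw exon 2 circle stood at 79753 and 81335 in WT and at 82561 and 60446 in Nxt1. The groups overlapped, and the log2 fold was -0.17 ± 0.21 (SE; edgeR adjusted p = 0.644). Next was exon 7 of tn, which encodes a TRIM protein of muscle, with 23836 and 32573 in WT against 16188 and 17497 in Nxt1. Both Nxt1 values lay below both WT values, but the log2 fold of -0.74 ± 0.26 did not pass (edgeR adjusted p = 0.0965).

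Among the abundant circles the lower Nxt1 values were also seen for exon 2 of larp, which encodes a La-related RNA-binding protein, at 13776 and 17305 in WT and 11083 and 8973 in Nxt1. Exon 2 of Pka-C3, a catalytic subunit of cAMP-dependent kinase, gave 7789 and 10346 in WT and 6164 and 5888 in Nxt1. Exon 2 of IRSp53, a protein that bends membranes at the cell cortex, gave 8896 and 8453 in WT and 5479 and 5295 in Nxt1. In each of these the groups did not overlap, and none passed (log2 folds from -0.59 to -0.69, adjusted p from 0.167 to 0.241 by edgeR). CG5953 exon 2, CG5151 exon 2 and exon 3 of px, a gene of wing vein patterning, showed the same order with log2 folds of -1.09, -1.13 and -0.84 (edgeR adjusted p of 0.0911, 0.0911 and 0.169).

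In the other direction, exon 3 of sona, an ADAMTS metalloprotease, gave 2245 and 1665 in WT and 3943 and 3952 in Nxt1. Exon 2 of Ncc69, a sodium, potassium and chloride cotransporter, gave 1129 and 1966 in WT and 4338 and 3084 in Nxt1. Neither passed, with log2 folds of 1.01 and 1.26 (edgeR adjusted p of 0.0984 and 0.0697). The circles of Magi exon 2, a junctional scaffold protein, mura exon 3, a ubiquitin ligase, and PlexA exon 2, a semaphorin receptor, overlapped between genotypes. Of all 15, 4 were higher in both Nxt1 values, 7 lower and 4 overlapped, where over the 335 circles listed in both genotypes the shares were 19.4% and 32.8%. Since the 15 were chosen by level over both genotypes, a circle such as Sarm exon 9 is among them through its Nxt1 values. Exon 2 formed 9 of the 15.

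**Figure D2:**
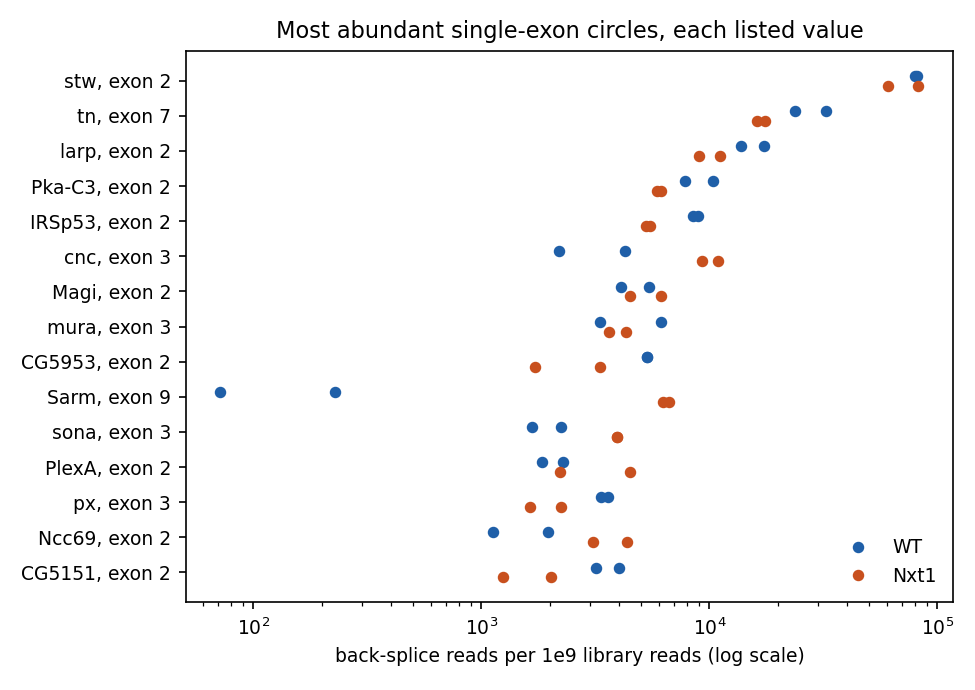
Each listed value (points, scaled reads, log scale) of the 15 single-exon circles with the highest mean over both genotypes, WT in blue and Nxt1 in orange, 2 values per genotype. The stw exon 2 circle stands at the top with values from 60446 to 82561, and the genotypes of Sarm exon 9 lie farthest apart.

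Single-exon circles held 42125 of 83575 reads (50.4%) in WT and 26289 of 54580 (48.2%) in Nxt1. By library, in the order of totals given above, the share was 44.7%, 48.9% and 60.04% in WT and 50.9%, 39.5% and 56.1% in Nxt1, with Wilson 95% intervals of at most 0.847 percentage points to either side for counting error only. The means were 51.2% ± 7.92 and 48.8% ± 8.48 (SD, n = 3 each), and the difference of -2.40 points had p = 0.8 in a 2-sided exact permutation test, whose smallest possible p is 0.1. The libraries overlapped, and the difference turned to 2.01 without the WT library of 92273200 reads and to 2.26 without the Nxt1 library of 71326500.

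The lowest library of each genotype is the one for which the stw exon 2 circle was not listed. Without the circles of stw the shares were 44.7%, 37.3% and 39.0% in WT and 40.3%, 39.5% and 31.2% in Nxt1. Their means were then 40.3% ± 3.89 and 37.0% ± 5.04 (exact permutation p = 0.6).

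Of the 227 circles, 105 (46.3%) were listed in both genotypes, 89 (39.2%) in WT only and 33 (14.5%) in Nxt1 only. For circles of all kinds the split was 46.0%, 35.9% and 18.1%. Circles listed in 1 genotype were rarer: in WT the median was 104 reads for those listed in both and 23 for those listed in WT only, and in Nxt1 65 and 15. A circle that is not listed has no deposited value, so no fold is given for it.

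The most abundant circles of the WT list alone were exon 2 of CG46315 (143 and 94 reads), exon 2 of CG31688 on transcript NM_001273695 (118 and 108) and exon 2 of Gug, the Atrophin corepressor (92 and 103). After them came exon 3 of pk, a planar polarity gene (63 and 77 reads), and exon 11 of Rbfox1, a splicing regulator (67 and 37). Their mean levels ran from 690.4 to 1535 scaled reads, and each had at least 37 reads in either listed library.

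On the Nxt1 list alone, the leading circles were exon 2 of scaf, a protease homolog without catalytic activity (56 and 22 reads), exon 2 of Ptx1, a homeobox gene (39 and 25), and exon 2 of CG31688 on transcript NM_001144371 (41 and 17). Exon 2 of blot, of the neurotransmitter transporter family, had 41 and 15 reads, and exon 3 of Prosap, a Shank scaffold, had 1 and 68. The values of Prosap differ 45.9-fold between libraries of the same genotype once scaled. CG31688 thus appears on either list with exon 2 of a different transcript, and the files do not show how those exons relate.

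The 2 values of a circle also varied within a genotype. Among single-exon circles with at least 40 reads the median ratio of the higher to the lower value was 1.37 in WT (107 circles) and 1.47 in Nxt1 (74 circles). It was over 2 for 22.4% and 36.5% of them. Circles of several exons had medians of 1.41 and 1.61.

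The genotypes were compared for the 335 circles listed in both, of which 105 are single-exon, with edgeR's quasi-likelihood test on the reads. Of the single-exon circles 4 were higher and 4 lower in Nxt1 at an adjusted p under 0.05 (3.81% each way), and 97 did not pass. The background was 2.69% higher and 3.28% lower among all 335 circles. Unadjusted p was under 0.05 for 31 single-exon circles and for 76 of all. In data simulated for this comparison, with a common dispersion for all circles, the test recovered 21.67% of 60 circles changed by a log2 fold of 2. Circles that did not pass may thus still differ.

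The median log2 fold of the 105 was -0.54, beside -0.26 for all 335 and -0.22 for circles of several exons. The median of the 105 moved to -0.26 without the second Nxt1 column, to -0.30 without the first WT column and to -0.29 with the median fold of all circles set to 0. Below 0 were 65 of the 105 and above 0 were 40. Both Nxt1 values lay above both WT values for 24 and below for 44, against a background of 19.4% and 32.8% of the 335. The gap of -0.33 between the medians of single-exon and other circles shrank to -0.07 without the second Nxt1 column. A column holds different libraries for different circles, so leaving it out does not remove 1 sample. By position the median was -0.56 for exon 2 (61 circles), -0.25 for exon 3 (23) and -0.65 for later exons (21).

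**Figure D3:**
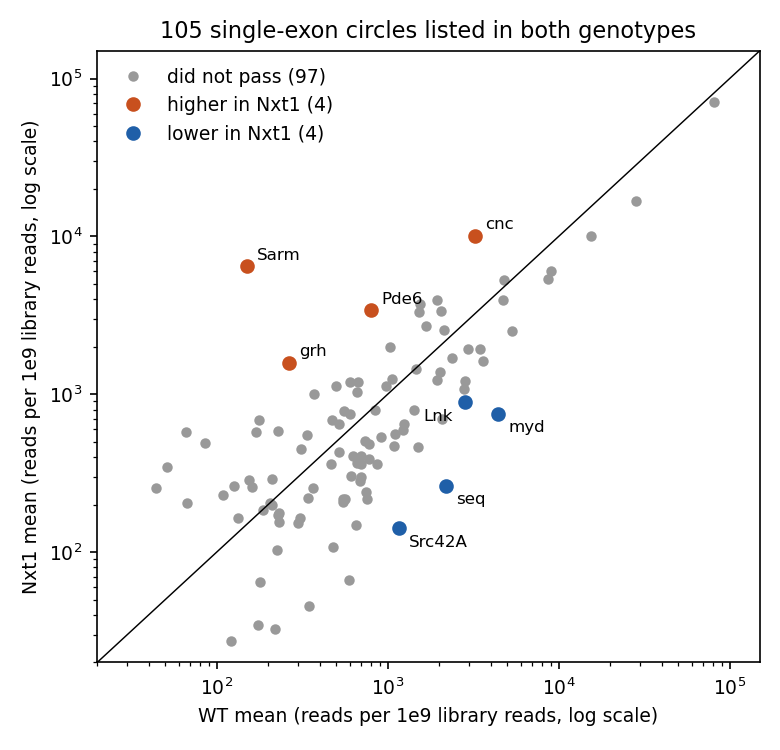
Mean level in Nxt1 against mean level in WT (scaled reads, both axes on a log scale) for the 105 single-exon circles listed in both genotypes. The line marks equal levels, and the 4 circles higher (orange) and 4 lower (blue) in Nxt1 by the edgeR test are named.

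The circle that differed most was exon 9 of Sarm (NM_001104075), a gene of the NAD-cleaving TIR enzyme that drives axon degeneration. Reads numbered 18 and 5 in the WT libraries and 322 and 447 in those of Nxt1, or 228 and 71.7 against 6683 and 6267 scaled reads. Every Nxt1 value was far above every WT value, with a log2 fold of 5.39 ± 0.50 (SE; edgeR adjusted p = 2.46e-06), and the call held under all 10 alternatives. Among these, the setting without a filter only repeats the main fit, since the filter removed no circle. Its host mRNA was at 588 ± 59.9 FPKM in WT and 590 ± 21.3 in Nxt1 (SD, n = 3 each), a log2 fold of 0.01 (limma adjusted p = 0.960).

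Exon 2 of grh (NM_057497), an epidermal transcription factor that is also one of the epidermis markers, had 14 and 30 WT reads and 86 and 99 Nxt1 reads. These are levels of 201 and 325 against 1785 and 1388, a log2 fold of 2.57 ± 0.59 (edgeR adjusted p = 0.0132). Exon 3 of Pde6 (NM_001300398), a cyclic GMP phosphodiesterase, had 63 and 56 WT reads and 200 and 189 Nxt1 reads. Its levels of 799 and 804 against 4151 and 2650 gave a log2 fold of 2.08 ± 0.41 (edgeR adjusted p = 0.00492).

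Exon 3 of cnc (NM_001260330), a stress-response transcription factor related to Nrf2, was the most abundant circle that passed. It had 172 and 297 WT reads and 527 and 663 Nxt1 reads, with levels of 2182 and 4262 against 10938 and 9295. Its log2 fold was 1.65 ± 0.35 (edgeR adjusted p = 0.00765). None of the host mRNAs of these 4 circles passed the threshold, with log2 folds of 0.17 for grh, 0.22 for Pde6 and -0.02 for cnc (limma adjusted p of 0.398, 0.242 and 0.937).

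Among the lower circles, exon 2 of myd (NM_001275796) had 331 and 377 WT reads and 39 and 55 Nxt1 reads. Its levels of 4750 and 4086 against 809 and 697 gave a log2 fold of -2.55 ± 0.38 (edgeR adjusted p = 0.000486), a call that held under all 10 alternatives. The host mRNA was higher, with a log2 fold of 0.52 (limma adjusted p = 0.0334), a call lost without any 1 library other than WT replicate 3 (limma adjusted p from 0.0614 to 0.109).

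Exon 3 of seq (NM_001032244), a zinc finger transcription factor, had 202 and 138 WT reads and 16 and 14 Nxt1 reads. Its levels of 2899 and 1496 against 332 and 196 gave a log2 fold of -3.07 ± 0.56 (edgeR adjusted p = 0.00244), while the host mRNA had -0.12 (limma adjusted p = 0.452). Exon 2 of Src42A (NM_136347), a tyrosine kinase of the Src family, had 80 and 108 WT reads and 11 and 4 Nxt1 reads. The low Nxt1 reads leave its fold imprecise, at a log2 value of -3.07 ± 0.77 from levels of 1148 and 1170 against 228 and 56.1 (edgeR adjusted p = 0.0210).

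Exon 2 of Lnk (NM_170246), an adaptor of insulin signalling, had 252 and 172 WT reads and 40 and 91 Nxt1 reads. Its levels were 3197 and 2468 against 507 and 1276, a log2 fold of -1.67 ± 0.46 (edgeR adjusted p = 0.0386). The host mRNAs of Src42A and Lnk were lower as well, by log2 folds of -0.52 and -0.32 (limma adjusted p of 0.0172 and 0.0167). Both host calls were lost without WT replicate 1 or any 1 Nxt1 library (limma adjusted p from 0.0519 to 0.0716). The calls of cnc, grh, Src42A, Lnk, seq and Pde6 were each lost when at least 1 of the 4 columns of values was left out, with their direction kept and adjusted p of up to 0.225 by edgeR. Without the first WT column 3 calls were left, of 9 among all circles, and without the second Nxt1 column 4, of 8. With the median fold of all circles set to 0 the split was 7 higher and 3 lower, of 21 calls among all circles.

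**Figure D4:**
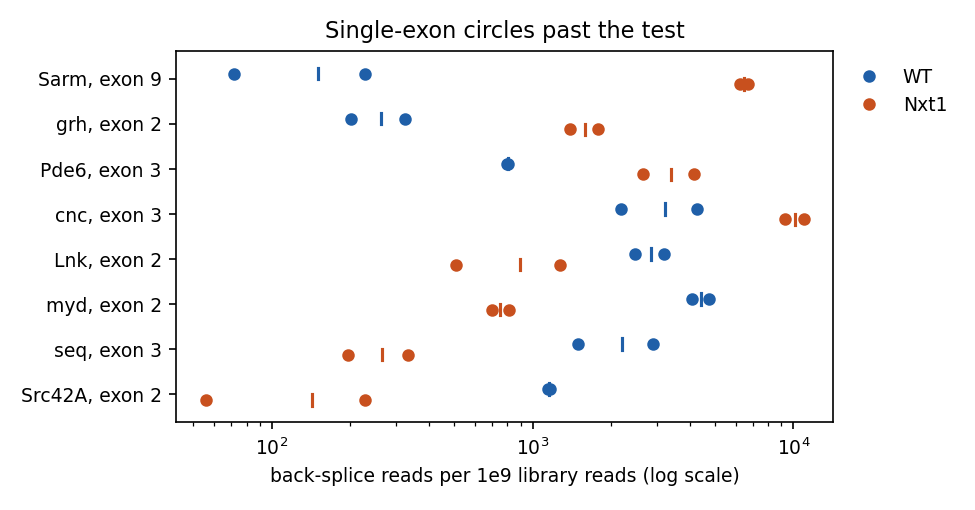
Each listed value (points) and the mean (short line) of the 8 single-exon circles that passed the edgeR test, in scaled reads on a log scale, WT in blue and Nxt1 in orange. The genotypes do not overlap in any of the 8, and the widest gap is that of Sarm exon 9, with 71.7 and 228 in WT against 6267 and 6683 in Nxt1.

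Of the 8 hosts of circles that passed, 4 (Sarm, Pde6, grh and Src42A) also gave circles of several exons, and none was listed for cnc, myd, seq and Lnk. Sarm gave a circle of exons 3 to 4 with WT reads of 99 and 140 and Nxt1 reads of 51 and 63, a log2 fold of -0.94 ± 0.46 (edgeR adjusted p = 0.236), and one of exons 2 to 3 on another transcript with 0.71 ± 0.94 (edgeR adjusted p = 0.684). Pde6 gave a circle of exons 5 to 6 on another transcript, NM_142112, with WT reads of 125 and 136 and Nxt1 reads of 40 and 35. Its log2 fold was -1.43 ± 0.50 (edgeR adjusted p = 0.0984). The Pde6 circles of exons 4 to 6 on NM_142112 and 2 to 3 on NM_001300398 had log2 folds of 0.83 ± 0.93 and -0.27 ± 0.85 (edgeR adjusted p of 0.616 and 0.859). A Pde6 circle of exons 3 to 4, on the transcript of the exon 3 circle, was listed in Nxt1 only (34 and 16 reads). One of exons 2 to 6 on another transcript was listed in WT only (14 and 1 reads). Sarm exons 2 to 4 (1 and 2 reads) and grh exons 4 to 5 (12 and 19 reads) were also listed in Nxt1 only. For Src42A the circle of exons 6 to 7 had -0.25 ± 0.72 (edgeR adjusted p = 0.841). None of these tested circles of several exons passed, and the difference between circles of the same gene was not tested.

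For 21 hosts, circles of both kinds were listed in both genotypes, and only circles listed in both were summed. Circles listed in 1 genotype, such as klar exon 5 at 227 scaled reads in WT, were left out. The sums thus do not cover all circles of a host, and adding the others could change a direction. Summed single-exon and summed multi-exon levels moved in the same direction in 12 of the 21, with 8 lower and 4 higher in Nxt1. The median log2 ratio was -0.08 for the single-exon and -0.21 for the multi-exon sums. Pearson's r across these hosts was -0.06, as a description of points that share libraries. Eip74EF, an ecdysone-induced Ets factor, went from 2069 to 695 for its exon 2 circle and from 544 to 469 for its circle of several exons. The cell surface protein gene sas went from 629 to 407 for its single-exon circle and from 413 to 1862 for the other. Eip74EF and sas were chosen after their values were seen.

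CG42674 and ct gave 3 single-exon circles each, and Parp1, stw and ps had the highest summed levels of the 16 hosts that gave 2. Parp1, a poly(ADP-ribose) polymerase, gave an exon 5 circle with WT reads of 123 and 107 and Nxt1 reads of 100 and 65 and an exon 4 circle with 3 and 6 against 41 and 12. Neither passed, with log2 folds of -0.02 and 2.69 (edgeR adjusted p of 0.979 and 0.135). Of the ct circles, exon 6 of NM_001258636 had 5 and 26 WT reads and 4 and 1 Nxt1 reads (log2 fold -2.67, edgeR adjusted p = 0.237). Exon 5 of NM_001272381 (21 and 31 reads) and exon 2 of NM_080025 (1 and 10) were listed in WT only. Each ct circle is numbered on a different transcript, and how these exons relate is not known here.

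CG42674 gave circles of exon 3 of NM_001144513 (46 and 38 reads) and exon 2 of NM_001202208 (2 and 7) on the WT list. On the Nxt1 list it gave exon 4 of NM_001144514 (20 and 6). These too are numbered on different transcripts, so they may or may not be different exons. From stw an exon 3 circle on another transcript, NM_165432, had 1 and 16 WT reads and 1 and 3 Nxt1 reads, far under its exon 2 circle. From ps, a Nova-like splicing factor, exon 2 of NM_001275486 had 125 and 208 WT reads and 129 and 82 Nxt1 reads (log2 fold -0.54, edgeR adjusted p = 0.451). Exon 2 of its other transcript had 1 and 11 reads in WT only.

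Host mRNA was measured in the mock libraries, apart from the circles. Of 207 hosts 203 were tested, 19 rose and 19 fell (9.36% each), against a background of 12.5% higher and 9.1% lower of 8923 genes. The balance of this background depended on the method. By edgeR on recovered reads, 1111 of 10476 genes were higher and 1256 lower in Nxt1, and host counts by that test are not given here. The median log2 fold was -0.05 for hosts and 0.01 for all genes. Pgi, which encodes the glycolytic enzyme phosphoglucose isomerase, rose from 497 ± 166 to 1585 ± 94.6 FPKM (SD, n = 3 each; limma adjusted p = 0.00704). Argk1, the arginine kinase, had a log2 fold of 1.22 and Ac76E, an adenylate cyclase, 1.04 (limma adjusted p of 0.0157 and 0.0143).

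Among the hosts that fell, the insulin receptor gene InR went from 63.8 ± 2.26 to 34.8 ± 3.12 FPKM (SD, n = 3 each; limma adjusted p = 0.00314). Myc, the growth regulator, had a log2 fold of -0.82 and Scr, a Hox gene, -0.89 (limma adjusted p of 0.0123 and 0.0170). These host genes were chosen after their values were seen. FPKM levels are compared only within a gene, since the lengths behind them are out of order between genes. With equal FPKM totals per library, 5 hosts rose and 100 fell, and the median of all genes moved to -0.31. The count of 38 changed hosts went to 67 without WT replicate 3, to 11 without WT replicate 1 or Nxt1 replicate 3, to 13 without Nxt1 replicate 1 and to 12 without Nxt1 replicate 2. The shares of all genes called with equal totals or without a library were not counted. Hosts can thus not be set against other genes under these settings.

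Hosts were also split by where their circles were listed. Of 103 tested hosts of circles listed in both genotypes 10 rose and 7 fell, of 84 hosts of WT-only circles 4 rose and 11 fell, and of 32 hosts of Nxt1-only circles 5 rose and 2 fell, to be read against 12.5% and 9.1% over all genes. Differences between these groups were not tested. Medians of the log2 fold were -0.07, -0.11 and 0.10. The folds of the 105 circles and of their host mRNAs had a Pearson's r of 0.12 and a Spearman's rho of 0.13 across circles, which share libraries. In 67 of the 105 both had the same sign, 43 below 0 and 24 above, and in 38 they were opposite.

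**Figure D5:**
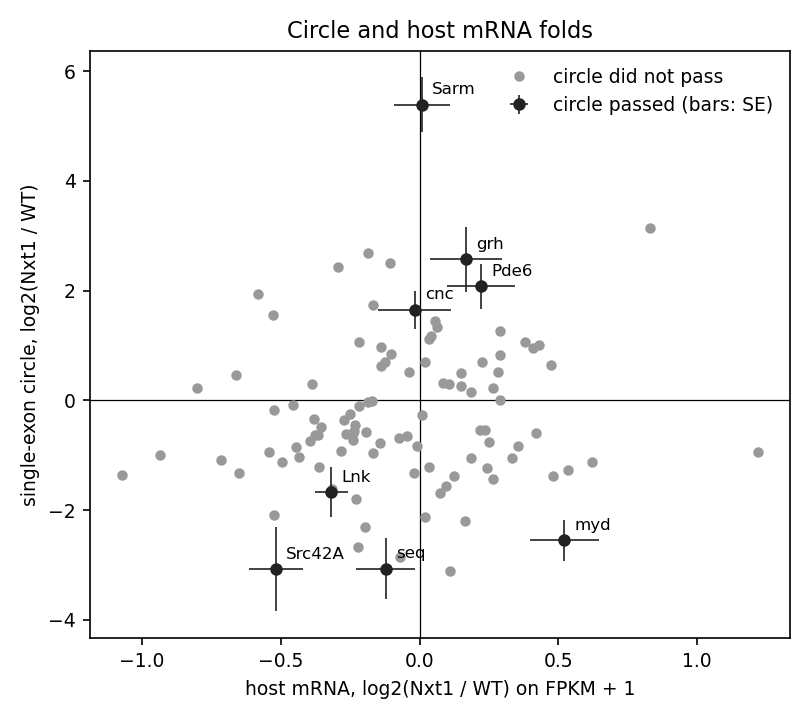
Log2 fold (Nxt1 over WT) of the 105 single-exon circles against the log2 fold of the host mRNA on FPKM + 1, with SE bars for the 8 circles that passed. Sarm stands at 5.39 over a host fold of 0.01, and myd at -2.55 over a host fold of 0.52.

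Pre-mRNA could be tested for 139 hosts, since 67 had values that are not finite and 1 was under the filter. Of these 1 rose and 0 fell, against a background of 0.839% higher and 0.643% lower of 3576 genes by limma. Unadjusted limma p was under 0.05 for 19 hosts with a higher and 12 with a lower value. With edgeR on recovered reads 7 hosts were called higher and 5 lower, against 4.31% and 3.68% of the 2527 genes tested that way. The 139 hosts are those tested by limma, and the number of hosts tested by edgeR is not given here. The host that rose was Pka-C3, from 3863 ± 68.8 to 7456 ± 922 FPKM (SD, n = 3 each), a log2 fold of 0.94 ± 0.12 (limma adjusted p = 0.0283). Its mRNA had a log2 fold of 0.42 (limma adjusted p = 0.0633) and its circle -0.59, neither past its threshold. The call was lost without any 1 library other than WT replicate 3, whose removal gave 8 calls among hosts. The share of all genes called without that library was not counted. The stw pre-mRNA had a log2 fold of -0.68 and its mRNA -0.53 (limma adjusted p of 0.146 and 0.0598).

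A list of 26 genes known to act in circle formation, splicing, export, modification or decay held no host of a single-exon circle. Hosts were only 203 of the 8923 genes tested for mRNA, so 0 of 26 is near the share over all genes. The list is not complete: splicing regulators outside it, such as Rbfox1 and ps above, were hosts. The mRNAs of the 26 listed genes rose in 2 cases and fell in 3, beside 12.5% and 9.1% of all genes, with a median log2 fold of 0.04. The log2 fold was 1.01 for sbr (limma adjusted p = 0.00143) and 0.30 for Ythdc1, the nuclear m6A reader (limma adjusted p = 0.0214), and the latter turned to -0.06 with equal totals. It was -0.59 for mbl, which encodes Muscleblind (limma adjusted p = 0.00881), and -0.40 for the splicing factor x16 (limma adjusted p = 0.0158), with Nxt1 itself the third. With equal totals 1 of the 26 rose and 15 fell, and the count of 5 went to 2 without WT replicate 1 or Nxt1 replicate 3 and to 3 without Nxt1 replicate 1 or 2. Shares of all genes under these settings were not counted. The mbl gene gave only circles of several exons, those of exons 5 to 6 in WT and of exons 6 to 9 in both genotypes.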

How the data were processed

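Total RNA of larval carcasses was sequenced in 12 libraries, and per the labels each reaction held 1 ug of RNA with RNase R (20 units, 30 min) or water. Tools in the submitters' processing notes are STAR 2.5.3a, Trimmomatic 0.36, featureCounts 1.6.2, Subread and DESeq2. The circle caller, the listing rule and the build were not found in the sources used here, so the text holds no coordinates or sequences.

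The authors deposited raw counts of back-splice reads for 2 of the 3 RNase R libraries of a genotype. The scaled signal that the authors deposited as a mean over both libraries is headed BPM and is in reads per 1000000000 library reads. The raw reads give this mean with 3 library totals per genotype, which placed all 597 WT and 467 Nxt1 circles in 1 pair of libraries each. In these files 4 columns of scaled values per library were not used. The mRNA and pre-mRNA values were deposited by the authors as FPKM, per the labels. Gene symbols came from the gene name table for 587 of 597 WT and 458 of 467 Nxt1 circles, and from RefSeq transcripts for the other 10 and 9.

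The members, lists and tests were chosen with earlier results of these data known. Circles listed in both genotypes with at least 10 reads, which removed none, were tested with edgeR 4.0.16 in R 4.3.3 (quasi-likelihood, library totals as offsets, Benjamini-Hochberg over 335 circles). For mRNA and pre-mRNA, limma 3.58.1 was run with trend on log2(FPKM + 1) of genes that averaged 1 FPKM or more, the threshold being an adjusted p under 0.05 throughout. Such folds understate changes of low genes. FPKM divided into whole reads (tolerance 0.01) in each of the 15293 mRNA and 4543 pre-mRNA genes that had reads and finite values, and edgeR on those reads was run beside limma. The recovered reads for mRNA numbered from 19790000 to 32803400 per mock library, up to a shared factor per gene. The lengths implied by FPKM do not follow the genes: their rank correlation with the span of the same gene was 0.0138 (mRNA) and 0.0160 (pre-mRNA), and with the span of whichever gene holds that rank among sorted IDs 0.925 and 0.855. On simulated data limma recovered 100% of 200 mRNA and 73% of 200 pre-mRNA genes changed by a log2 fold of 1. Every gene was simulated with the same spread, the median SD of genes in WT, so these shares do not hold for genes with more spread.

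Named circles are the 15 with the highest mean scaled value, those past the test, the top 5 listed in WT only and in Nxt1 only, and those of the 5 hosts with most single-exon circles, hosts with equal numbers being ranked by their summed level. Of the factors those past the threshold are named. DESeq2 1.42.0, other scalings, filters and pseudocounts and leaving out values or libraries were alternatives. The labels do not say if replicates came from different larvae, so p-values may measure technical spread.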

Additional observations from a re-analysis of the deposited data

How the results depend on the processing

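Of 20 calls among all circles, 8 were of single-exon circles. This count of 8 stayed within 1.5 times under a stricter filter (8 of 19 calls), a median fold of all circles set to 0 (10 of 21) and limma (12 of 28). Without a filter the fit is the same, since the filter removed no circle. DESeq2 gave 13 of 30 calls. Library factors from the ratios of listed values, an alternative chosen after seeing the data, gave 21 of 45. Leaving out 1 column of values gave from 3 to 9, beside from 8 to 19 among all circles. The difference in the share of reads ran from -6.03 to 2.26 points when libraries were left out, and was 2.01 and 2.26 in the 2 cases where it turned. It was -2.90 for circles listed in both genotypes and -3.18 as a share of listed values, the latter chosen after seeing the data. No paired analysis was possible because the circle values carry no replicate numbers. For mRNA and pre-mRNA the numbers of the labels did not pair the libraries (correlations of deviations from -0.286 to 0.036), and with a replicate block the changed hosts were 10 for mRNA and 0 for pre-mRNA, and the changed factors 1. Of 38 changed host mRNAs, equal totals gave 105, no filter 29 and leaving out a library from 11 to 67. For the 1 host pre-mRNA edgeR gave 12 and leaving out a library from 0 to 8. For the 5 factors equal totals gave 16 and leaving out a library from 2 to 7. Apart from edgeR, the shares of all genes called under these alternatives were not counted.

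Some values near 0 changed sign. Setting the median fold to 0 gave log2 folds of 0.0862 for stw exon 2, 0.00764 for mura and 0.23 for Parp1 exon 5. Leaving out a column gave ranges from -0.41 to 0.0357 for stw exon 2, from -0.0803 to 0.37 for Magi, from -0.62 to 0.25 for mura, from -0.82 to 0.51 for Parp1 exon 5 and from -3.08 to 1.00 for stw exon 3. Equal totals gave host mRNA folds of -0.11 for Pde6, -0.35 for Sarm and -0.19 for grh, and -0.0567 for Ythdc1. The Sarm mRNA had -0.0401 by edgeR and from -0.0775 to 0.0640 without a library, and the cnc mRNA ran from -0.11 to 0.0753. The cause was not tested. Over all alternatives the named circles gave 223 values with the same sign on the same side of the threshold, 12 with a call gained, 15 with a call lost and 10 with the sign changed. The 223 include the setting without a filter, which could not differ from the main fit. Depth limits the rarest circles most: 41 WT and 19 Nxt1 circles stood under 100 scaled reads.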
